A study of Sus scrofa with 9 samples.

Results

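The dual-specificity MAP kinase phosphatases were examined in porcine hearts donated after circulatory death (DCD). Members were chosen by gene symbol from a list of 10 (DUSP1, DUSP2, DUSP4, DUSP5, DUSP6, DUSP7, DUSP8, DUSP10, DUSP14 and DUSP16). The expression table held 5 of them by symbol among its 25149 genes, namely DUSP1, DUSP4, DUSP7, DUSP10 and DUSP14, and all 5 passed the filter on low values (at least 1 TPM in at least 3 hearts). DUSP2, DUSP5, DUSP6, DUSP8 and DUSP16 were not analysed here, and 12006 genes of the table carry no symbol.

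All 9 hearts came from female American Yorkshire pigs aged 4 to 6 months, were exposed to 15 min of warm ischemia, were arrested with cardioplegia, and were reperfused for 2 h by normothermic machine perfusion (NMP) on a blood-primed circuit before 1 biopsy was taken from the apex. In Group 1 (NRP + HOPE 24 h, pigs 27, 28 and 30), 60 min of normothermic regional perfusion (NRP), which restores blood flow in the donor's body, was followed by 24 h of hypothermic oxygenated perfusion (HOPE) at 8 °C. In Group 2 (NRP + SCS 2 h, pigs 24, 25 and 29), the same NRP was followed by 2 h of static cold storage (SCS) at 4 °C. In Group 3 (No NRP + HOPE 2 h, pigs 31, 33 and 34), hearts were procured directly and kept for 2 h in HOPE at 8 °C. Groups 1 and 2 differ in storage method, duration and temperature together, Groups 2 and 3 in NRP, storage method and temperature, and Groups 1 and 3 in NRP and duration, so that these factors cannot be told apart. Storage method includes the fluid. The paper describes a HOPE perfusate to which packed red cells from donors, insulin, antibiotics, heparin and potassium were added, whereas SCS hearts were submerged in the heart solution. No heart was sampled before ischemia, so the levels have no baseline in these data.

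MAP kinases (ERK, JNK and p38) are switched on by phosphorylation of a threonine and a tyrosine in their activation loop, and dual-specificity phosphatases switch them off by removing both phosphates. Several of these phosphatases are themselves transcribed in response to MAP kinase activity and thereby form a negative feedback loop. In the heart, ERK, JNK and p38 are activated by ischemia and reperfusion, and phosphatases of this family limit the duration of that signal. The members differ in where they act: DUSP1 and DUSP4 are inducible nuclear enzymes, DUSP7 is a cytoplasmic enzyme with preference for ERK, DUSP10 acts mainly on JNK and p38, and DUSP14 is a small atypical enzyme without the MAP kinase-binding domain of the others.

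The labels name cardiomyocytes, but the biopsies hold whole myocardium. Summed over the listed markers, cardiomyocyte genes (5 of 6 matched) gave 16577 to 30394 TPM per heart, endothelial genes (5 of 6) 204 to 470 TPM, and fibroblast genes (4 of 5) 390 to 655 TPM. Smooth muscle and pericyte genes (4 of 5, with MYH11 listed at 0 in every heart) gave 188 to 426 TPM, macrophage and monocyte genes (4 of 5) 21.8 to 49.3 TPM, and lymphocyte genes (4 of 6) 1.82 to 14.5 TPM. Neutrophil genes (3 of 4) summed to 0.357 to 3.89 TPM in Group 1, 2.02 to 13.2 TPM in Group 2 and 0 to 0.343 TPM in Group 3, with CSF3R at 0 in every heart and S100A8 at 0 in all Group 3 hearts. Erythroid genes (3 of 3) summed to 73.9 to 425 TPM, 71.4 to 133 TPM and 222 to 373 TPM in the same order. In bulk tissue, fewer cells of a type and less RNA per cell cannot be told apart. The 13 mitochondrially encoded protein genes took 38.2% of TPM in pig 30 and 44.8% to 55.3% in the other hearts. The median TPM of the genes tested ran from 4.66 in pig 27 to 8.72 in pig 30, both of Group 1.

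TPM values are scaled for transcript length, so that levels can be set side by side between genes. DUSP1 (ENSSSCG00000016991) was the highest of the 5 phosphatases in all 9 hearts, with a mean of 209.2 TPM over the hearts, and 97.2% of the 11782 genes tested had a lower mean. DUSP10 (ENSSSCG00000010831) averaged 21.4 TPM (77.3% of tested genes lower), DUSP7 (ENSSSCG00000011430) 9.91 TPM (60.05% lower), DUSP4 (ENSSSCG00000015850) 9.65 TPM (59.3% lower) and DUSP14 (ENSSSCG00000029874) 3.68 TPM (33.2% lower). DUSP14 was the lowest in all 9 hearts and DUSP10 the second highest in 7 of 9, the exceptions being pig 25, where DUSP4 was second, and pig 29, where DUSP7 was second. The means of DUSP7 and DUSP4 differed by less than their spread, with SDs of 5.34 and 5.12 TPM over the 9 hearts. DUSP1 was also the steadiest, with a highest heart 2.31 times its lowest, against 3.75 times for DUSP10, 4.59 times for DUSP14, 4.61 times for DUSP7 and 5.40 times for DUSP4.

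**Figure D1:**
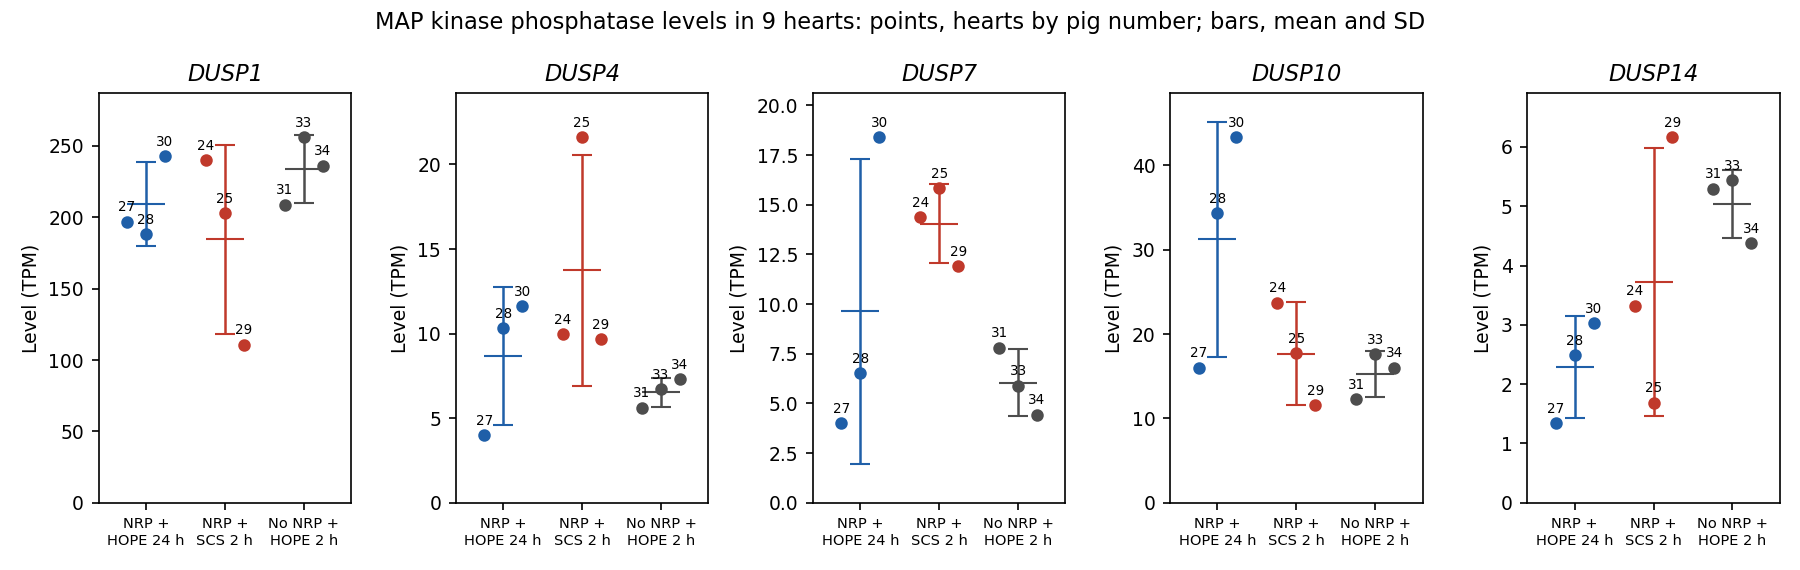
Level of each phosphatase (TPM, linear axes from 0, a separate scale for each gene) in the 9 hearts, grouped by preservation; points are hearts with the pig number, bars are the mean and SD of 3 hearts. DUSP7 and DUSP4 lie lower in every No NRP + HOPE 2 h heart than in every NRP + SCS 2 h heart, and DUSP14 lies between 1.34 and 3.03 TPM in NRP + HOPE 24 h hearts against 4.38 to 5.44 TPM in No NRP + HOPE 2 h hearts.

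No phosphatase met the threshold (adjusted p under 0.05 and absolute log2 fold change over 1) in any of the 3 comparisons. DUSP7 and DUSP4 had lower levels in No NRP + HOPE 2 h hearts than in NRP + SCS 2 h hearts, and DUSP14 had lower and DUSP10 higher levels in NRP + HOPE 24 h hearts than in No NRP + HOPE 2 h hearts. These 4 differences had an unadjusted p under 0.05 and did not hold after adjustment over all genes tested. The tests used limma on log2(TPM + 1), with Benjamini-Hochberg adjustment, and all log2 fold changes below are on that scale, which understates the change of a low gene such as DUSP14. The comparisons share groups, so they are not independent of each other.

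DUSP1, an immediate early gene whose product inactivates p38, JNK and ERK in the nucleus, measured 196.8, 188.3 and 242.8 TPM in NRP + HOPE 24 h hearts (pigs 27, 28 and 30). It measured 239.8, 202.9 and 110.8 TPM in NRP + SCS 2 h hearts (pigs 24, 25 and 29) and 208.8, 256.0 and 236.3 TPM in No NRP + HOPE 2 h hearts (pigs 31, 33 and 34). All groups overlapped, and pig 29 was the only heart under 188 TPM. The means were 209.3 ± 29.3 (SD, n = 3), 184.5 ± 66.5 and 233.7 ± 23.7 TPM. The log2 fold change was 0.24 (95% interval -0.38 to 0.87) for NRP + HOPE 24 h versus NRP + SCS 2 h, 0.41 (-0.22 to 1.04) for No NRP + HOPE 2 h versus NRP + SCS 2 h, and -0.16 (-0.79 to 0.47) for NRP + HOPE 24 h versus No NRP + HOPE 2 h. The first of these was -0.085 without pig 29, 0.13 without pig 30 and 0.47 without pig 24, and it was 0.092 with array weights, which weight each heart by its estimated variability, and 0.39 after median-of-ratios scaling. The second was 0.078 without pig 29 and 0.63 without pig 24. The third was -0.27 without pig 30, -0.091 without pig 28 and -0.094 without pig 33, and -0.33 with array weights. A change of about 2-fold in either direction lies outside all of these intervals except the upper end of the second.

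DUSP4, an inducible nuclear phosphatase, measured 4.003, 10.3 and 11.6 TPM in NRP + HOPE 24 h hearts, 9.96, 21.6 and 9.65 TPM in NRP + SCS 2 h hearts and 5.61, 6.70 and 7.30 TPM in No NRP + HOPE 2 h hearts. The latter 2 groups did not overlap with each other, and NRP + HOPE 24 h hearts overlapped both. Pig 25 held a higher level than the other two hearts of its group. The means were 8.66 ± 4.08 (SD, n = 3), 13.7 ± 6.81 and 6.54 ± 0.856 TPM. For No NRP + HOPE 2 h versus NRP + SCS 2 h the log2 fold change was -0.88 (95% interval -1.75 to -0.016), with an unadjusted p of 0.0464 and an adjusted p of 0.689 (limma). Without pig 25 it was -0.53 (unadjusted p = 0.239, limma), and the unadjusted p also exceeded 0.05 without pig 31, 33 or 34 (0.0553 to 0.105).

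DUSP7, which acts on ERK in the cytoplasm, measured 3.99, 6.53 and 18.4 TPM in NRP + HOPE 24 h hearts, 14.4, 15.8 and 11.9 TPM in NRP + SCS 2 h hearts and 7.80, 5.89 and 4.44 TPM in No NRP + HOPE 2 h hearts. The NRP + SCS 2 h hearts lay close together and above every No NRP + HOPE 2 h heart, while the NRP + HOPE 24 h hearts ran from the lowest to the highest value of all 9. The means were 9.64 ± 7.69 (SD, n = 3), 14.0 ± 1.99 and 6.04 ± 1.69 TPM. For No NRP + HOPE 2 h versus NRP + SCS 2 h the log2 fold change was -1.11 (95% interval -2.04 to -0.19), that is a TPM + 1 that was 0.462 times as high, with an unadjusted p of 0.0215 and an adjusted p of 0.596 (limma). The unadjusted p exceeded 0.05 when pig 25 (0.0606) or pig 34 (0.0678) was left out.

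The DUSP7 level of NRP + HOPE 24 h hearts was set largely by pigs 27 and 30, the latter being the heart with the lowest mitochondrial share and the highest median TPM. Against NRP + SCS 2 h the log2 fold change was -0.73 (95% interval -1.66 to 0.19, unadjusted p = 0.110, limma) with pig 30 and -1.29 (unadjusted p = 0.00204) without it, and -0.31 without pig 27. Against No NRP + HOPE 2 h it was 0.38 with pig 30 and -0.17 without it, 0.81 without pig 27, 0.21 without pig 34 and 0.17 with array weights. After median-of-ratios scaling between hearts, the NRP + HOPE 24 h values were 5.42, 7.12 and 13.7 scaled TPM, so pig 30 remained the highest of its group. The part of library composition in these values was not tested.

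DUSP10, which inactivates JNK and p38, measured 16.0, 34.3 and 43.3 TPM in NRP + HOPE 24 h hearts, 23.7, 17.7 and 11.6 TPM in NRP + SCS 2 h hearts and 12.3, 17.6 and 16.0 TPM in No NRP + HOPE 2 h hearts. Pigs 28 and 30 stood above the 7 other hearts, whereas pig 27 lay within the range of both other groups. The means were 31.2 ± 13.9 (SD, n = 3), 17.7 ± 6.07 and 15.3 ± 2.73 TPM. The log2 fold change was 0.89 (95% interval 0.069 to 1.70, unadjusted p = 0.0356, adjusted p = 0.804, limma) for NRP + HOPE 24 h versus No NRP + HOPE 2 h and 0.73 (-0.086 to 1.55, unadjusted p = 0.0756, adjusted p = 0.993) against NRP + SCS 2 h. Without pig 27 these were 1.29 (unadjusted p = 0.00270) and 1.14 (unadjusted p = 0.00616), whereas the latter was 0.45 (unadjusted p = 0.269) without pig 30 and 0.47 (unadjusted p = 0.282) without pig 29. For NRP + HOPE 24 h versus No NRP + HOPE 2 h the unadjusted p exceeded 0.05 without pig 28, 30, 31 or 34 (0.0527 to 0.145). Pig 27 had the lowest median TPM, and after median-of-ratios scaling its DUSP10 level was 21.7 scaled TPM, above the 13.5 to 16.3 of the No NRP + HOPE 2 h hearts.

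DUSP14, the small atypical phosphatase, measured 1.34, 2.49 and 3.03 TPM in NRP + HOPE 24 h hearts, 3.32, 1.69 and 6.16 TPM in NRP + SCS 2 h hearts and 5.30, 5.44 and 4.38 TPM in No NRP + HOPE 2 h hearts. The NRP + SCS 2 h hearts covered nearly the whole range, and the other groups lay apart from each other. The means were 2.29 ± 0.860 (SD, n = 3), 3.72 ± 2.26 and 5.04 ± 0.579 TPM. For NRP + HOPE 24 h versus No NRP + HOPE 2 h the log2 fold change was -0.91 (95% interval -1.73 to -0.092, unadjusted p = 0.0318, adjusted p = 0.795, limma). The unadjusted p exceeded 0.05 when pig 27 (0.119), pig 31 (0.0647) or pig 33 (0.0778) was left out.

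**Figure D2:**
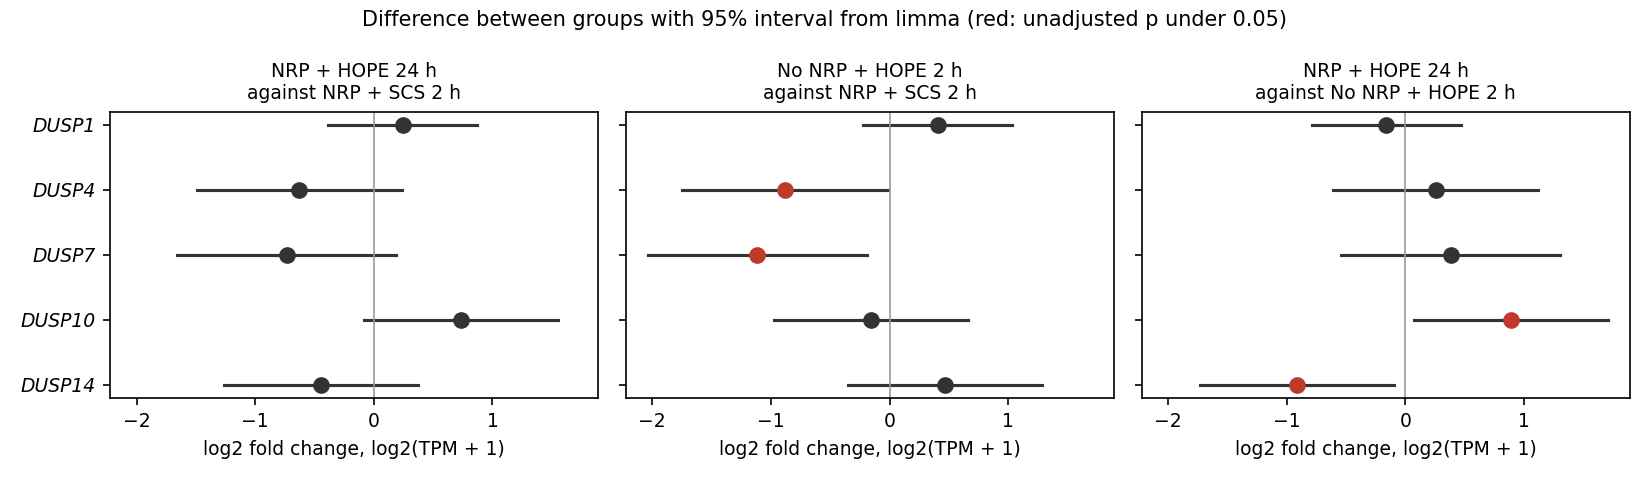
Difference of each phosphatase between groups (log2 fold change on the log2(TPM + 1) scale, first-named group relative to the second) with its 95% interval from limma; red points have an unadjusted p under 0.05. Only 4 of the 15 intervals exclude 0, those of DUSP4 and DUSP7 for No NRP + HOPE 2 h versus NRP + SCS 2 h and those of DUSP10 and DUSP14 for NRP + HOPE 24 h versus No NRP + HOPE 2 h.

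For NRP + HOPE 24 h versus NRP + SCS 2 h, 0 of the 5 phosphatases were called by limma, against 0.0255% of all genes tested. None had an unadjusted p under 0.05, against 1.82% of tested genes higher and 3.14% lower in NRP + HOPE 24 h. None had groups that did not overlap, which 2.5% of tested genes did on the higher side and 7.32% on the lower. Their median log2 fold change was -0.45, beside -0.12 over all genes tested, a shift of the whole table that median-of-ratios scaling brought to 0.00030.

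For No NRP + HOPE 2 h versus NRP + SCS 2 h, 0 of 5 were called (0.0509% of tested genes). DUSP4 and DUSP7 were lower at an unadjusted p under 0.05, against 4.65% of tested genes, and none was higher, against 2.57%. The same genes were those whose hearts did not overlap, against 10.3% of tested genes lower and 4.44% higher without overlap. The median over the 5 was -0.16 and over all genes -0.07. The marker sums of neutrophils (lower in every No NRP + HOPE 2 h heart) and of erythroid cells (higher) given above did not overlap between these groups either, nor did those of fibroblasts, at 526 to 655 TPM in No NRP + HOPE 2 h and 390 to 507 TPM in NRP + SCS 2 h hearts. Of the 4 fibroblast markers, only DCN (mean 404 against 312 TPM) separated the hearts by itself. COL1A2 and LUM were higher with overlap, and PDGFRA was lower (2.82 against 3.95 TPM) with overlap. The part of these marker sums in the DUSP4 and DUSP7 values was not tested.

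For NRP + HOPE 24 h versus No NRP + HOPE 2 h, 0 of 5 were called (0.0509% of tested genes). DUSP10 was higher at an unadjusted p under 0.05, against 2.78% of tested genes, and DUSP14 lower, against 3.23%. Only DUSP14 separated the hearts of the groups on the lower side, against 4.51% of tested genes, and none did on the higher side, against 2.97%. With median-of-ratios scaling DUSP10 separated them as well. The median over the 5 was 0.25 and over all genes -0.03. Between these groups the smooth muscle and pericyte sums did not overlap, at 188 to 308 TPM in NRP + HOPE 24 h and 358 to 426 TPM in No NRP + HOPE 2 h hearts. The neutrophil sums did not overlap either, but only narrowly and near the floor. The lowest NRP + HOPE 24 h heart held 0.357 TPM and the highest No NRP + HOPE 2 h heart 0.343 TPM. The part of these sums in the DUSP10 and DUSP14 values was not tested. An exact permutation test over 3 against 3 hearts cannot give a p under 0.1, and 3 of the 15 tests of single phosphatases reached it (adjusted exact p = 0.5 for each, two-sided), namely DUSP4 and DUSP7 for No NRP + HOPE 2 h versus NRP + SCS 2 h and DUSP14 for NRP + HOPE 24 h versus No NRP + HOPE 2 h.

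The composition of the family was described by ratios of the members within each heart, which do not depend on the scaling between hearts. These ratios were chosen after the values were seen and are given without a test. DUSP1 made up 87.1% to 88.0% of the summed TPM of the 5 phosphatases in No NRP + HOPE 2 h hearts, 73.8% to 82.4% in NRP + SCS 2 h hearts and 76.1% to 88.6% in NRP + HOPE 24 h hearts. The No NRP + HOPE 2 h hearts thus lay within 1 percentage point of each other and above all NRP + SCS 2 h hearts.

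The ratio of DUSP10, directed at JNK and p38, to DUSP14 was 11.9, 13.8 and 14.3 in NRP + HOPE 24 h hearts, 7.13, 10.5 and 1.88 in NRP + SCS 2 h hearts and 2.32, 3.24 and 3.66 in No NRP + HOPE 2 h hearts. Every NRP + HOPE 24 h heart lay above the 6 others, with a geometric mean 4.41 times that of No NRP + HOPE 2 h and 2.56 times that of NRP + SCS 2 h. The ratio of the ERK-directed DUSP7 to DUSP10 was 0.250, 0.190 and 0.425 in NRP + HOPE 24 h hearts and 0.607, 0.893 and 1.03 in NRP + SCS 2 h hearts, with no overlap and a geometric mean 0.331 times as high in the former. In No NRP + HOPE 2 h hearts it was 0.634, 0.334 and 0.278, which overlapped both.

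The ratio of DUSP4 to DUSP10 was 0.250, 0.301 and 0.269 in NRP + HOPE 24 h hearts, below all 6 other hearts, which ran from 0.380 to 1.22. Pig 27, which had the lowest level of DUSP4 and of DUSP14 in the series, lay near pigs 28 and 30 in the ratios of DUSP4 and of DUSP14 to DUSP10. The ratio of DUSP4 to DUSP7 had geometric means of 1.002, 0.915 and 1.10 in Groups 1, 2 and 3. Its hearts ran from 0.633 to 1.58, 0.693 to 1.36 and 0.719 to 1.64, and overlapped in every comparison. In No NRP + HOPE 2 h hearts the ratio of DUSP1 to DUSP7 was 3.15 times that of NRP + SCS 2 h and the ratio of DUSP1 to DUSP4 2.61 times, both without overlap. Of the 10 pairs, 3 did not overlap for NRP + HOPE 24 h versus NRP + SCS 2 h, 4 for No NRP + HOPE 2 h versus NRP + SCS 2 h and 6 for NRP + HOPE 24 h versus No NRP + HOPE 2 h. Over all pairs of the 10994 tested genes above 0 TPM in every heart, 15.12%, 18.02% and 16.89% did not overlap in the same order. Pairs share members, so these counts are not counts of independent results.

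**Figure D3:**
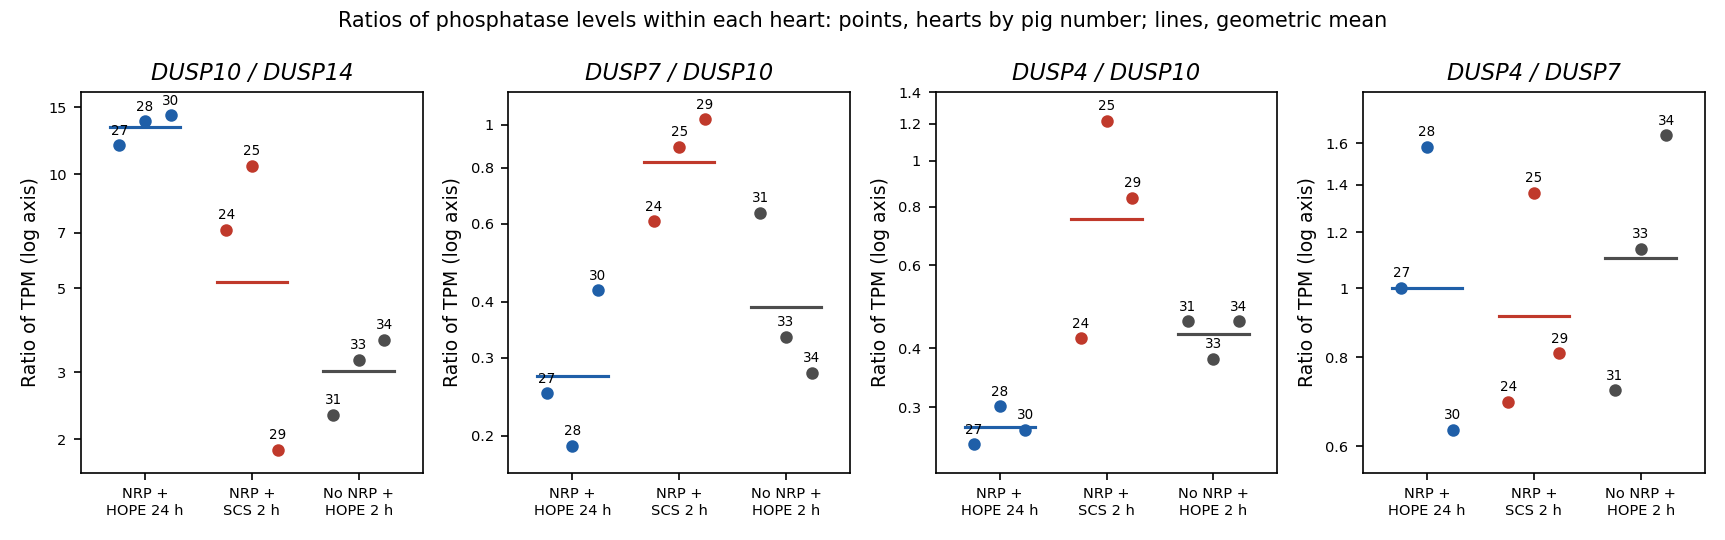
Ratio of the TPM of pairs of phosphatases in each heart (log axes, a separate scale for each pair), grouped by preservation; points are hearts with the pig number and lines are geometric means of 3 hearts. The DUSP10 to DUSP14 ratio lies between 11.9 and 14.3 in NRP + HOPE 24 h hearts, above all other hearts, while the DUSP4 to DUSP7 ratio overlaps between all groups.

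The kinases on which these phosphatases act were tested in 4 of the 10 listed MAP kinases (5 matched by symbol). None had an unadjusted p under 0.05 in any comparison, and their medians were -0.15, -0.05 and 0.01 in the order of the comparisons above. MAPK9, which encodes a JNK, had the largest difference in both comparisons of NRP + HOPE 24 h (log2 fold change -0.49 against NRP + SCS 2 h and -0.45 against No NRP + HOPE 2 h). It measured 0.739, 2.09 and 3.90 TPM in NRP + HOPE 24 h hearts, and without pig 27, the lowest, the values were -0.11 and -0.061. Without pig 30, the highest, they were -0.85 (unadjusted p = 0.0290, limma) and -0.81 (unadjusted p = 0.0365), and with a pseudocount of 0.1 and all hearts -0.76 and -0.70. Of the upstream MAP2 kinases, 6 of 7 were tested, with medians of -0.01, 0.01 and 0.02. MAP2K6, an activator of p38, was higher in No NRP + HOPE 2 h hearts (1.66, 1.71 and 6.49 TPM) than in NRP + SCS 2 h hearts (0.182, 0.397 and 1.19 TPM) or NRP + HOPE 24 h hearts (0.266, 0.463 and 0.826 TPM). Outside No NRP + HOPE 2 h, only the heart at 1.19 TPM reached the 1 TPM of the filter. MAP2K6 was thus tested only through the group in which it is high, and the p-values that follow carry that selection. Its log2 fold changes were 1.30 (unadjusted p = 0.00966, adjusted p = 0.505, limma) against NRP + SCS 2 h and -1.33 (unadjusted p = 0.00836, adjusted p = 0.513) for NRP + HOPE 24 h versus No NRP + HOPE 2 h. Without pig 34, the highest heart, they were 0.81 (unadjusted p = 0.0622) and -0.84 (unadjusted p = 0.0537), and with a pseudocount of 0.1 they were 2.29 and -2.26. MAP2K7, an activator of JNK, had the largest difference for NRP + HOPE 24 h versus NRP + SCS 2 h (-0.61, unadjusted p = 0.162, from -1.002 without pig 30 and -0.93 without pig 29 to -0.40 without pig 28 and -0.37 without pig 24, and -0.95 with array weights).

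Of 13 MAP3 kinases, 12 were tested and none had an unadjusted p under 0.05, with medians of -0.11, -0.17 and 0.03. The largest differences were those of MAP3K6 (-0.80, NRP + HOPE 24 h versus NRP + SCS 2 h) and of MAP3K20, the stress-activated kinase ZAK (-0.60 for No NRP + HOPE 2 h versus NRP + SCS 2 h and 0.67 for NRP + HOPE 24 h versus No NRP + HOPE 2 h). Without pig 33 the MAP3K20 values were -0.38 and 0.44. Of 12 other inhibitors of the pathway, 5 were matched and tested, and again none had an unadjusted p under 0.05 (medians 0.06, -0.13 and -0.02). PTPRR, a tyrosine phosphatase that acts on ERK and p38, was lower in NRP + HOPE 24 h hearts (0.634 ± 0.413 TPM, SD, n = 3) than in NRP + SCS 2 h hearts (1.63 ± 0.563 TPM) with a log2 fold change of -0.70, and had -0.51 against No NRP + HOPE 2 h. With a pseudocount of 0.1 these were -1.38 and -1.04, and without pig 34 or pig 28 the latter was -0.22 or -0.31. SPRED2, an inhibitor of the RAS to RAF step, had the largest difference for No NRP + HOPE 2 h versus NRP + SCS 2 h (0.59, from 0.29 without pig 29 to 0.91 without pig 31, and 0.39 without pig 33).

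Genes that are transcribed in response to MAP kinase activity, as several of the phosphatases are, were tested in 12 of 17 (14 matched). For NRP + HOPE 24 h versus NRP + SCS 2 h, 2 were higher and 0 lower at an unadjusted p under 0.05, against 1.82% and 3.14% of all genes tested. By sign alone 8 were higher and 4 lower, 5 were higher without overlap of the hearts (2.5% of all genes) and 0 lower, and the median was 0.37 beside -0.12 over all genes. For No NRP + HOPE 2 h versus NRP + SCS 2 h 0 were higher or lower at that level, and for NRP + HOPE 24 h versus No NRP + HOPE 2 h 1 was higher (2.78% of all genes) and 0 lower, with medians of -0.01 and 0.15. All 5 tested endothelial markers had negative log2 fold changes for NRP + HOPE 24 h versus NRP + SCS 2 h (median -0.47), summing to 204 to 435 TPM against 419 to 454 TPM in NRP + SCS 2 h. Of these markers 2 were lower without overlap, against 7.32% of all genes tested. HBB had 1.27 (unadjusted p = 0.0284, adjusted p = 0.943, limma). S100A9, which passed the filter only through NRP + SCS 2 h, where it is high, had -1.35 (unadjusted p = 0.0117, adjusted p = 0.792). The part of these markers in the values of the MAP kinase-responsive list was not tested. IER3, an early response gene that modulates ERK signaling and survival, measured 360.4, 709.8 and 596.2 TPM in NRP + HOPE 24 h hearts, 180.6, 235.8 and 151.0 TPM in NRP + SCS 2 h hearts and 136.1, 209.8 and 139.4 TPM in No NRP + HOPE 2 h hearts. Every NRP + HOPE 24 h heart lay above the 6 others. Its log2 fold changes were 1.52 (unadjusted p = 0.000211, adjusted p = 0.138, limma) and 1.75 (unadjusted p = 5.53e-05, adjusted p = 0.0815), and the adjusted p ranged from 0.0268 to 0.611 and from 0.0365 to 0.422 over the alternative settings.

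FOSL1, a subunit of the AP-1 transcription factor, was 64.5 ± 20.7 TPM (SD, n = 3) in NRP + HOPE 24 h hearts and 32.4 ± 9.57 TPM in NRP + SCS 2 h hearts, with a log2 fold change of 0.96 (unadjusted p = 0.0264, adjusted p = 0.943, limma). The unadjusted p exceeded 0.05 without pig 28, 29 or 30. The others without overlap, named after their values were seen, were EGR2 (0.44), EGR3 (0.37) and JUNB (0.42). On the other side, EGR1 had -0.40 and FOS -0.23, with hearts that overlapped. ATF3, a stress-induced transcription factor, had the largest difference for No NRP + HOPE 2 h versus NRP + SCS 2 h (0.91, unadjusted p = 0.0557). It measured 73.2, 123.5 and 264.8 TPM in No NRP + HOPE 2 h hearts, and the value was 0.42 without pig 34.

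All 10 kinases activated by MAP kinases were tested, with medians of -0.05, -0.13 and -0.01. MAPKAPK3, a substrate of p38, was lower in NRP + HOPE 24 h hearts (19.8 ± 4.87 TPM, SD, n = 3) than in NRP + SCS 2 h hearts (31.7 ± 3.44 TPM), with a log2 fold change of -0.68 (unadjusted p = 0.0477, adjusted p = 0.993, limma). The unadjusted p exceeded 0.05 without pig 24, 25, 27, 28 or 29 (0.0708 to 0.139). In No NRP + HOPE 2 h hearts it was 20.3 ± 6.20 TPM, also without overlap with NRP + SCS 2 h (-0.66, unadjusted p = 0.0526). RPS6KA3, a substrate of ERK, was lower in No NRP + HOPE 2 h hearts (14.1 ± 4.59 TPM) than in NRP + SCS 2 h hearts (23.1 ± 3.62 TPM), with -0.71 (unadjusted p = 0.0453, adjusted p = 0.687), and had 0.65 for NRP + HOPE 24 h versus No NRP + HOPE 2 h. With array weights these were -0.46 and 0.42, and the unadjusted p of the former exceeded 0.05 without pig 24, 25, 29, 31 or 34 (0.0534 to 0.163). Of the 10 kinases, 2 were lower without overlap for No NRP + HOPE 2 h versus NRP + SCS 2 h, those just named, against 10.3% of all genes tested, and 2 were higher, against 4.44%. The latter, named after their values were seen, were MKNK1 (0.62, unadjusted p = 0.0768, limma), a kinase of the translation factor eIF4E, and RPS6KA5 (0.45, unadjusted p = 0.179), a nuclear kinase of histone H3.

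Dual-specificity phosphatases outside the list of 10, some of which also act on MAP kinases, were tested in 11 of 16 (12 matched), with medians of -0.11, -0.30 and 0.11. For No NRP + HOPE 2 h versus NRP + SCS 2 h, 1 was higher and 2 were lower at an unadjusted p under 0.05, against 2.57% and 4.65% of all genes tested, and 0 had such a p in the other comparisons. DUSP26, a muscle and neural phosphatase, was 46.4 ± 14.3 TPM (SD, n = 3) against 84.7 ± 16.7 TPM, with a log2 fold change of -0.89 (unadjusted p = 0.0167, adjusted p = 0.566, limma). The slingshot phosphatase SSH2, which acts on cofilin, had -0.81 (unadjusted p = 0.0340), and DUSP15 had 0.81 (unadjusted p = 0.0443) and -0.67 for NRP + HOPE 24 h versus No NRP + HOPE 2 h, the latter being -0.33 without pig 27 and -0.43 without pig 34. At least 1 heart left out took the unadjusted p of each of these 3 genes over 0.05 for No NRP + HOPE 2 h versus NRP + SCS 2 h, namely pig 29 or 34 for DUSP26, any but pig 34 for SSH2 and pig 24, 29, 33 or 34 for DUSP15. DUSP12 had the largest difference for NRP + HOPE 24 h versus NRP + SCS 2 h (-0.60, unadjusted p = 0.0689). No gene of any of the 7 lists was called in any comparison.

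**Figure D4:**
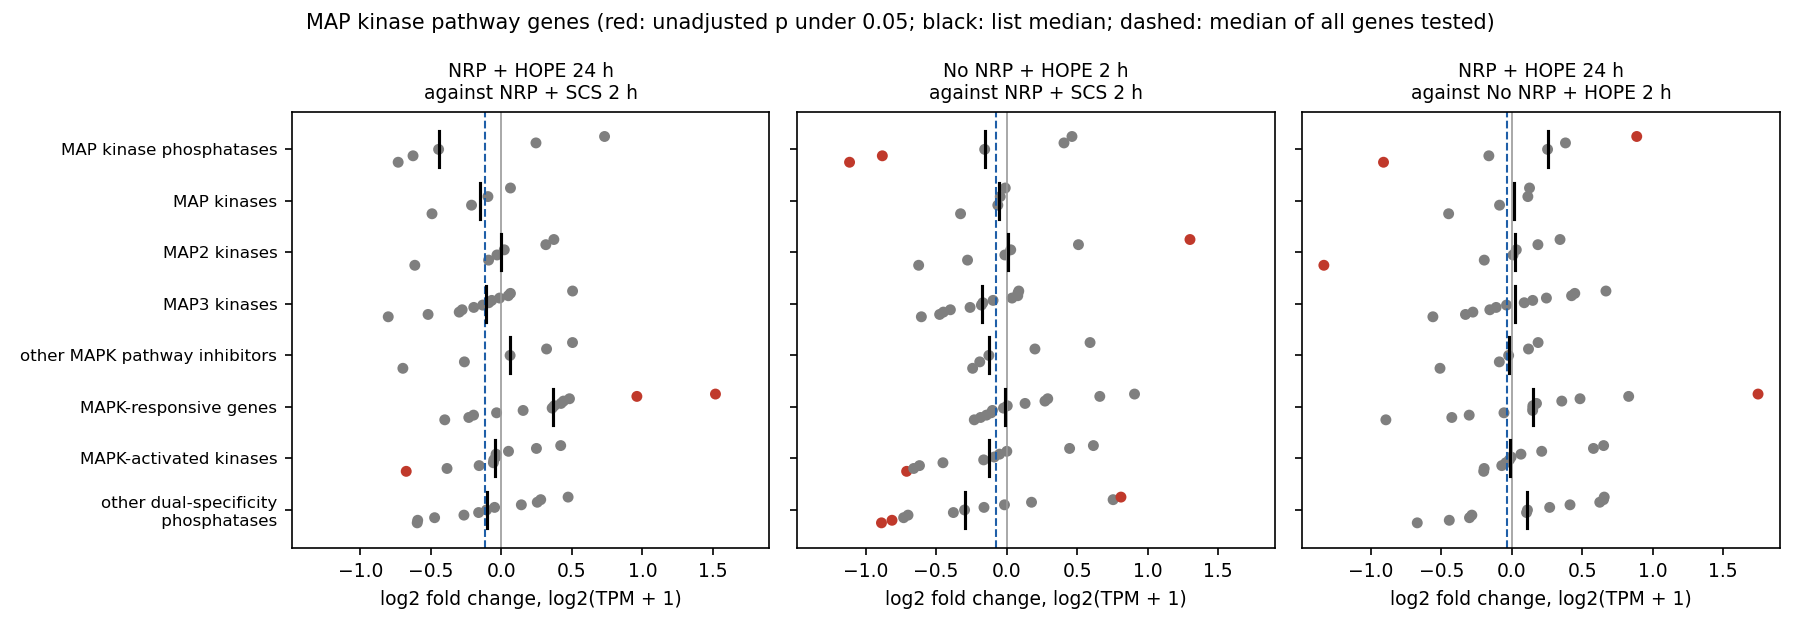
Difference between groups (log2 fold change on the log2(TPM + 1) scale) of every tested gene of the MAP kinase phosphatases and the 7 other lists; red points have an unadjusted p under 0.05, black bars are list medians and the dashed line is the median of all 11782 genes tested. IER3, at 1.52 and 1.75, lies farthest to the right in the panels for NRP + HOPE 24 h, and DUSP7, at -1.11, farthest to the left for No NRP + HOPE 2 h versus NRP + SCS 2 h.

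Of 6 relations between a phosphatase and a partner gene, only that of DUSP1 with FOS, an immediate early gene, could be computed, because a partner was not matched in the others. FOS averaged 153.6 ± 77.7 TPM (SD, n = 3) in NRP + HOPE 24 h hearts, 170.2 ± 41.2 TPM in NRP + SCS 2 h hearts and 309.1 ± 220.2 TPM in No NRP + HOPE 2 h hearts. Across the 9 hearts, log2(TPM + 1) of DUSP1 and FOS gave Pearson's r = 0.303 (exact permutation p = 0.354) and Spearman's rho = 0.2 (exact permutation p = 0.613). Without pigs 29 and 33, farthest from the median of DUSP1, r was 0.264 over 7 hearts. With median-of-ratios scaling r was 0.441 and rho 0.667 (exact permutation p = 0.240 and 0.0589), so a relation was not detectable with 9 hearts. Each group holds too few hearts for a value of its own.

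The genes whose levels over the 9 hearts most resembled those of the phosphatases with the largest differences were listed by Pearson's r, as a description over hearts that share library composition. They are the highest of all tested genes with a symbol over only 9 hearts, so their high r follows in part from that selection and was not tested. DUSP7 was most like RHOBTB3 (r = 0.988), C8orf82 (0.946) and FECH (0.935), the last being ferrochelatase, which completes heme synthesis. DUSP10 was most like PTGIR, the prostacyclin receptor (0.965), MAP2K1, the kinase that activates ERK (0.961), and TSC22D2 (0.954). DUSP14 was most like MTF2 (0.940), HERPUD2 (0.928) and GCC2 (0.924).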

How the data were processed

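RNA sequencing was analysed for 1 apex biopsy from each of 9 pigs in 3 groups of 3, assigned by the pig number in the labels and column names, and 9 further columns that match no sample were not used. The authors trimmed reads (Trimmomatic 0.36), mapped them with STAR 2.5.2b, counted them with featureCounts (Subread 1.5.2) and deposited TPM values, which are scaled for length and to a common total. Genome build and gene lengths are not given in the sources used here, and no coordinates or sequences are printed, so the planned search of promoters and proteins was not run. Read depth is unknown, and no counting intervals are given. Because mitochondrial transcripts take a large share of the fixed total, a change in that share moves the TPM of every other gene.

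The authors' DESeq2 test needs counts, so limma 3.58.1 (R 4.3.3) was fitted to log2(TPM + 1) of all 9 hearts, with 1 mean per group and trended eBayes. Genes reaching 1 TPM in 3 or more hearts entered the two-sided test (11782 genes) and were called when the Benjamini-Hochberg adjusted p was below 0.05 and the log2 fold change exceeded 1 in size. Exact permutation tests between groups used scipy 1.17.1, and those of DUSP1 with FOS ran over all pairings of the 9 hearts. Only the limma fit was tried on simulated data, and its outcome there is not given here. The members, gene lists and alternatives were chosen with earlier results of these data known. Named were all matched members and partner genes, list genes at an unadjusted p under 0.05 or with the largest difference, and the 3 most similar genes of the 3 members with the largest differences. One gene that this rule would name is not reported here.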

Additional observations from a re-analysis of the deposited data

How the results depend on the processing

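Of 222 log2 fold changes of single phosphatases under the alternatives (pseudocount, filter, scaling, mitochondrial genes, hearts fitted, variance trend, array weights and each heart left out), 219 kept their direction and 0 were called by limma. The 3 that reversed were DUSP1 for NRP + HOPE 24 h versus NRP + SCS 2 h without pig 29 (-0.085, with a range of -0.085 to 0.47 over the hearts left out), DUSP10 for No NRP + HOPE 2 h versus NRP + SCS 2 h without pig 24 (0.074, range -0.41 to 0.074) and DUSP7 for NRP + HOPE 24 h versus No NRP + HOPE 2 h without pig 30 (-0.17, range -0.17 to 0.81). All 351 values of named list genes kept their direction, and 5, all of IER3, were called.

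The number of phosphatases at an unadjusted p under 0.05 for NRP + HOPE 24 h versus NRP + SCS 2 h was 0 as reported, 1 with median-of-ratios scaling, quantile normalization or mitochondrially encoded genes left out, 2 with array weights, and 0 to 1 with each heart left out. For No NRP + HOPE 2 h versus NRP + SCS 2 h it was 2 as reported, 1 with a pseudocount of 0.1 or no filter on low values, and 0 to 2 with each heart left out (0 without pig 25 or 34). For NRP + HOPE 24 h versus No NRP + HOPE 2 h it was 2 as reported, 1 with a mean TPM of at least 5, where DUSP14 is not tested, and 0 to 1 with each heart left out (0 without pig 31). The number of phosphatases whose hearts did not overlap in that comparison was 1 as reported and 2 with median-of-ratios scaling, quantile normalization or mitochondrially encoded genes left out. The cause of these differences was not tested. No paired analysis was possible because the groups share no pig and no replicate number. With 3 hearts a group and an unknown depth, the precision of each difference is given by its interval alone.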
